A study of Mus musculus with 15 samples.

Results

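The genes described here are 10 markers of hepatic stellate cells and of the myofibroblasts they can become: Reln, Lrat, Dcn, Lum, Des, Pdgfra, Pdgfrb, Acta2, Tagln and Rgs5. They were taken from the deposited tables by Ensembl identifier, and all 10 of 10 were found among the 56953 genes listed. All 10 also passed the filter on low counts that left 17975 genes for testing.

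Hepatic stellate cells lie between hepatocytes and the sinusoidal endothelium and store retinyl esters. When the liver is injured they can turn into contractile myofibroblasts that deposit scar matrix. Lrat, Reln and Des are widely used to recognise the cells in their resting state, Pdgfrb and Pdgfra encode receptors through which they are driven to divide, and Acta2 and Tagln encode contractile proteins of the activated state. Carbon tetrachloride (CCl4) is a hepatotoxin that is commonly used to produce liver fibrosis in rodents, and mineral oil is its vehicle.

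RNA from primary mouse hepatocytes was sequenced in 15 libraries. The groups were wild-type (WT) mice given mineral oil (n = 4), WT mice given CCl4 (n = 3), transgenic ΔEGFR mice given mineral oil (n = 4) and transgenic ΔEGFR mice given CCl4 (n = 4). The labels give no age, sex, strain, dose or duration, and do not name the promoter of the transgene. As background from outside the labels, ΔEGFR is a truncated EGF receptor without its catalytic domain that is expressed in hepatocytes, where it acts in a dominant-negative way. The labels also do not say whether libraries of a group came from separate animals, so the p-values below measure the spread between these libraries. The labelled cell type carried its defining transcripts: 15 hepatocyte genes summed to between 51019 and 124971 TPM (transcript abundance scaled by length and to a fixed total per library) in every library. The 10 stellate and myofibroblast markers summed to between 9.7 and 269.1 TPM.

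Total expected counts ran from 51.7 M to 155.4 M (M, mega) per library, with 6 libraries at or under 61.9 M, called the lower range here, and 9 at or over 96.2 M, the upper range. Every ΔEGFR mineral oil library lay in the upper range. WT mineral oil replicate 1 stood apart: 13 genes of T, NK and B cells and neutrophils summed to 5185.5 TPM there, against 5.4 at the lowest and 39.9 at the median of its group.

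Promoter sequences are shown for Acta2 and Lrat, a contractile and a retinoid marker whose ratio varied widely between libraries. Each is the 250 bases before the RefSeq gene start in build GRCm38.p6, 5′ to 3′ on the minus strand, at chr19:34255374-34255623 for Acta2 and chr3:82903975-82904224 for Lrat.
Acta2: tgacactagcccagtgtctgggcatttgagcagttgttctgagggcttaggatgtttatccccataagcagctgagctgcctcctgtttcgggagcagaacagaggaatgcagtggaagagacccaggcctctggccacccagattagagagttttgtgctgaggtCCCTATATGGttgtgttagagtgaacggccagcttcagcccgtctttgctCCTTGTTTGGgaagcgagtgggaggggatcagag
Lrat: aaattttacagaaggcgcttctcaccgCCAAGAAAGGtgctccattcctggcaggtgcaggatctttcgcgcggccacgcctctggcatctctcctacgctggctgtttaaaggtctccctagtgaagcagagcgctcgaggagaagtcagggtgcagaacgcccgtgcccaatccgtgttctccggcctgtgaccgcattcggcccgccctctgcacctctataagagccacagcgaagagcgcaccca
Capitals mark CArG-like stretches, which are CC, then 6 bases of A or T with 1 G or C among them, then GG, a pattern that reads alike on both strands. CArG boxes are the letters bound by serum response factor, a regulator of contractile genes. The Acta2 window held 2 such stretches and the Lrat window 1, while 7.24% of 32851 RefSeq promoter windows of this length held at least 1. Of the 6 members with a window (Reln, Lrat, Des, Pdgfra, Acta2 and Rgs5), these 2 were the only ones with a CArG-like stretch. The ratio of Acta2 to Rgs5 varied slightly more between libraries than that of Acta2 to Lrat. The choice of the 2 windows shown thus cannot be taken as independent of the motif. The strict CArG box, with A or T at all 6 inner bases, was in 0 of the 6 members and in 1.47% of all windows.

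All 10 markers were detected in all 4 groups, at levels that differed widely between libraries of a group. Dcn had the highest mean over the 15 libraries, at 42.5 TPM, followed by Reln at 15.3 and Rgs5 at 7.65, and Pdgfra had the lowest, at 0.861. Between the lowest and the highest library the TPM differed by 17.0-fold for Rgs5, by 43.9-fold for Lrat and by 92.7-fold for Tagln. In bulk libraries of this kind, fewer cells of a type and less RNA per cell cannot be told apart.

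**Figure D1:**
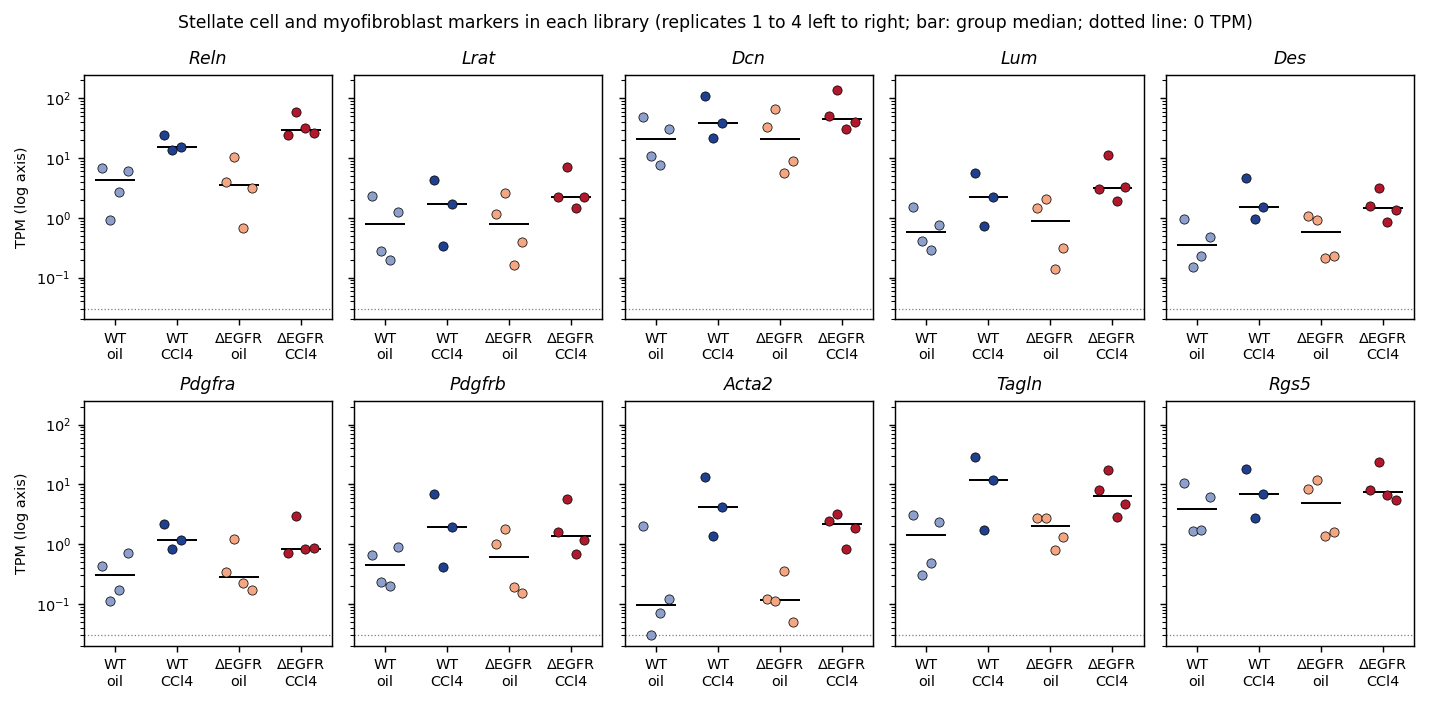
TPM of each marker on a log axis, 1 point per library (replicates 1 to 4 from left to right) and 1 bar per group median, in WT and ΔEGFR libraries after mineral oil (oil) or CCl4; the dotted line stands for 0 TPM. Acta2 was at or below 0.36 TPM in 7 of 8 mineral oil libraries, and Reln was higher in every ΔEGFR CCl4 library than in any other group's libraries.

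Lrat encodes lecithin retinol acyltransferase, which makes the retinyl esters that stellate cells store. Its TPM was 2.33, 0.28, 0.20 and 1.27 in the WT mineral oil libraries and 4.38, 0.34 and 1.68 in the WT CCl4 libraries. The ΔEGFR libraries held 1.17, 2.59, 0.16 and 0.40 after mineral oil and 2.24, 7.02, 1.47 and 2.23 after CCl4. The groups overlapped in every comparison, with the highest level in ΔEGFR CCl4 replicate 2. The log2 fold change for CCl4 against mineral oil was 0.65 ± 1.02 (SE) in WT (edgeR, adjusted p = 0.709) and 0.92 ± 0.96 in ΔEGFR (adjusted p = 0.578). The WT value turned to -0.55 without WT CCl4 replicate 1 and was 1.45 (adjusted p = 0.321) without WT mineral oil replicate 1. A change of Lrat was thus not detectable against the spread between these libraries.

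Reln encodes reelin, a secreted glycoprotein that in the liver is made by stellate cells. Its TPM was 6.77, 0.92, 2.7 and 5.99 in the WT mineral oil libraries and 23.9, 13.57 and 15.49 in the WT CCl4 libraries. Its ΔEGFR values were 3.95, 10.47, 0.68 and 3.11 after mineral oil and 24.11, 58.51, 32.41 and 26.59 after CCl4. Every CCl4 library lay above every mineral oil library in both genotypes, and every ΔEGFR CCl4 library lay above every WT CCl4 library, by a margin of 24.11 against 23.9. The mean was 4.10 ± 2.76 (SD, n = 4) and 17.7 ± 5.49 (n = 3) TPM in WT, and 4.55 ± 4.18 (n = 4) and 35.4 ± 15.8 (n = 4) TPM in ΔEGFR. The log2 fold change for CCl4 was 1.52 ± 0.78 in WT (edgeR, adjusted p = 0.215) and 2.53 ± 0.76 in ΔEGFR (adjusted p = 0.076), so Reln did not pass the threshold of 0.05 in either genotype. In ΔEGFR it passed in 5 of 20 alternative analyses, among them DESeq2 (2.61, adjusted p = 0.00607) and the fit without ΔEGFR mineral oil replicate 2 (3.60, adjusted p = 0.0488), with adjusted p between 0.00607 and 0.208 over the 20. The estimated mean transcript length of Reln varied from 4618 to 9563 bases between libraries, so its TPM depends also on how reads were divided among isoforms.

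Among the 3 other genes listed for reelin signalling, the receptor gene Vldlr rose in both genotypes, by 2.99 ± 0.77 (log2 fold change ± SE) in WT (edgeR, adjusted p = 0.0255) and by 2.98 ± 0.72 in ΔEGFR (adjusted p = 0.0406). The summed level of the 3 genes was low, between 0.1 and 1.6 TPM in WT mineral oil (at most 0.4 without replicate 1) and between 1.1 and 1.9 TPM in WT CCl4. Of 13 tested genes for retinoid handling, 2 rose and 2 fell in WT, and 1 rose and 1 fell in ΔEGFR. Over all genes tested, 5.31% rose and 7.2% fell in WT, and 1.77% rose and 2.38% fell in ΔEGFR. These shares also apply to the gene lists named below. Aldh1a2, which makes retinoic acid, rose by 2.92 ± 0.55 in WT (adjusted p = 0.00772) and by 2.0 ± 0.51 in ΔEGFR (adjusted p = 0.046). Dgat1, which esterifies fats and retinol, fell by 0.50 ± 0.14 in WT and 0.51 ± 0.13 in ΔEGFR, again as log2 fold changes (adjusted p = 0.0368 and 0.0463).

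Pdgfrb and Pdgfra encode the receptors for platelet-derived growth factors, which are strong mitogens of stellate cells. Pdgfrb TPM was 0.67, 0.23, 0.20 and 0.88 in the WT mineral oil libraries and 6.95, 0.41 and 1.96 in the WT CCl4 libraries. For ΔEGFR the values were 1.01, 1.77, 0.19 and 0.15 after mineral oil and 1.60, 5.68, 0.69 and 1.18 after CCl4. The groups overlapped in both genotypes, with 1 CCl4 library in each well above the others. The estimate was 2.25 ± 1.03 in WT (edgeR, adjusted p = 0.168) and 0.84 ± 0.95 in ΔEGFR (adjusted p = 0.615). The WT value was 0.73 once WT CCl4 replicate 1, which held the highest Pdgfrb level, was left out, and the ΔEGFR value was 0.035 without ΔEGFR CCl4 replicate 2, which held the highest level there.

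Pdgfra ran from 0.11 to 0.70 TPM in WT mineral oil and from 0.82 to 2.18 TPM in WT CCl4, with no overlap. In ΔEGFR it ran from 0.17 to 1.21 TPM after mineral oil and from 0.72 to 2.99 TPM after CCl4, and the groups overlapped. Its log2 fold change was 1.86 ± 0.70 in WT (edgeR, adjusted p = 0.0982) and 1.0 ± 0.65 in ΔEGFR (adjusted p = 0.356), the latter 0.48 without ΔEGFR CCl4 replicate 2. Of the 4 genes for the ligands of these receptors, 2 rose in WT and 0 passed in ΔEGFR. Pdgfb, the main ligand of the Pdgfrb product, rose by 3.59 ± 0.95 on the log2 scale in WT (adjusted p = 0.0285), and Pdgfc, a ligand of the Pdgfra product, by 1.49 ± 0.44 (adjusted p = 0.0421).

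Dcn and Lum encode decorin and lumican, small leucine-rich proteoglycans that bind collagen fibrils. They are also neighbours on mouse chromosome 10, with 0 protein-coding genes between them in the RefSeq table. Dcn TPM was 48.78, 10.82, 7.72 and 30.88 in the WT mineral oil libraries and 107.32, 21.91 and 38.53 in the WT CCl4 libraries. In ΔEGFR it was 32.72, 65.72, 5.54 and 9.03 after mineral oil and 50.67, 136.76, 31.08 and 40.09 after CCl4. Dcn was highest in the libraries that were highest for Lrat, WT CCl4 replicate 1 and ΔEGFR CCl4 replicate 2, and its groups overlapped. The log2 fold change of Dcn was 0.78 ± 0.86 in WT (edgeR, adjusted p = 0.582) and 0.53 ± 0.80 in ΔEGFR (adjusted p = 0.716). The WT value was 1.35 without WT mineral oil replicate 1 and -0.20 without WT CCl4 replicate 1, and the ΔEGFR value was 0.01 without ΔEGFR CCl4 replicate 2.

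Lum lay lower than Dcn, at 0.29 to 1.54 TPM in WT mineral oil and 0.73 to 5.60 TPM in WT CCl4. In ΔEGFR it ran from 0.14 to 2.05 TPM after mineral oil and from 1.95 to 11.22 TPM after CCl4, and all these groups overlapped. Its log2 fold change was 1.48 ± 0.94 in WT (edgeR, adjusted p = 0.32) and 1.57 ± 0.89 in ΔEGFR (adjusted p = 0.288). The WT value was 0.42 without WT CCl4 replicate 1, and the ΔEGFR value was 0.92 without ΔEGFR CCl4 replicate 2. Of 10 tested other genes of the proteoglycan family, 1 rose in each genotype: Fmod, which encodes fibromodulin, by 5.12 ± 1.08 in WT (adjusted p = 0.0116) and by 4.45 ± 1.01 in ΔEGFR (adjusted p = 0.0349).

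Acta2 encodes smooth muscle α-actin, the usual marker of the myofibroblast. Its TPM was 2.02, 0.00, 0.07 and 0.12 in the WT mineral oil libraries and 13.45, 1.38 and 4.21 in the WT CCl4 libraries. ΔEGFR libraries held 0.12, 0.11, 0.36 and 0.05 after mineral oil and 2.44, 3.14, 0.82 and 1.85 after CCl4. In ΔEGFR every CCl4 library lay above every mineral oil library, and in WT the groups overlapped only through WT mineral oil replicate 1. The expected counts behind the 4 WT mineral oil values were 397.01, 0, 2 and 9, where a count of 0 allows up to 3. The log2 fold change was 3.05 ± 1.33 in WT (edgeR, adjusted p = 0.149) and 3.25 ± 1.31 in ΔEGFR (adjusted p = 0.15), and neither passed the threshold. Without WT mineral oil replicate 1 the WT value was 6.52 (adjusted p = 0.00436), without WT CCl4 replicate 1 it was 1.70 (adjusted p = 0.494), and over 19 alternative analyses the adjusted p in WT ran from 0.00436 to 0.494. The mean length assigned to Acta2 varied from 826 to 2035 bases, so its TPM also depends on the isoform estimate. Actin genes are similar in sequence, and its expected counts were whole or nearly whole.

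Tagln encodes transgelin (SM22), an actin-binding protein of smooth muscle and myofibroblasts. Its TPM was 3.02, 0.31, 0.49 and 2.39 in the WT mineral oil libraries and 28.73, 1.73 and 12.03 in the WT CCl4 libraries. The ΔEGFR values of Tagln were 2.7, 2.7, 0.81 and 1.33 after mineral oil and 7.91, 17.32, 2.87 and 4.76 after CCl4. The ΔEGFR groups did not overlap, whereas WT CCl4 replicate 2 lay below 2 of the WT mineral oil libraries. Tagln rose in WT, by 3.05 ± 0.92 on the log2 scale (edgeR, adjusted p = 0.0469), and its value in ΔEGFR was 1.55 ± 0.84 (adjusted p = 0.27). The call in WT was lost without any 1 of WT mineral oil replicates 2, 3 and 4 and WT CCl4 replicates 1 and 3 (adjusted p = 0.114, 0.116, 0.0876, 0.255 and 0.0922), and the value fell to 1.72 without WT CCl4 replicate 1. It was 3.80 (adjusted p = 0.0181) without WT mineral oil replicate 1.

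Des encodes desmin, the intermediate filament by which rodent stellate cells are often stained. It ran from 0.15 to 0.94 TPM in WT mineral oil and from 0.96 to 4.63 TPM in WT CCl4, so the WT groups did not overlap, by a margin of 0.94 against 0.96. In ΔEGFR it ran from 0.21 to 1.09 TPM after mineral oil and from 0.85 to 3.12 TPM after CCl4. The estimate was 2.0 ± 0.82 in WT (edgeR, adjusted p = 0.125) and 0.70 ± 0.75 in ΔEGFR (adjusted p = 0.592). Des passed in WT without WT mineral oil replicate 1 (2.65, adjusted p = 0.0397) and was at 0.97 (adjusted p = 0.516) without WT CCl4 replicate 1.

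Rgs5 encodes a regulator of G-protein signalling that marks pericytes and other mural cells. Its TPM was 10.73, 1.67, 1.75 and 6.11 in the WT mineral oil libraries and 18.13, 2.74 and 6.85 in the WT CCl4 libraries. Among ΔEGFR libraries it was 8.24, 12.03, 1.37 and 1.57 after mineral oil and 8.15, 23.31, 6.56 and 5.58 after CCl4. The groups overlapped, and the libraries with high Rgs5 were those with high Dcn. Its estimate was 0.45 ± 0.89 in WT (edgeR, adjusted p = 0.772) and 0.19 ± 0.83 in ΔEGFR (adjusted p = 0.91), the smallest of the 10 markers in each genotype. The WT value was 1.11 without WT mineral oil replicate 1 and -0.60 without WT CCl4 replicate 1. The pericyte gene Higd1b was listed at 0 in every library, and 0 of 7 tested pericyte genes passed in either genotype.

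Counted over the 10 markers, 1 (Tagln) passed as higher after CCl4 in WT, where 5.31% of all genes tested did, and 0 passed in ΔEGFR, where 1.77% did. All 10 estimates were positive in both genotypes and under each scaling tried, though those of Lrat, Dcn and Rgs5 in WT and of Rgs5 in ΔEGFR turned negative without some single libraries. They spanned 0.45 to 3.05 in WT and 0.19 to 3.25 in ΔEGFR. Their median log2 fold change was 1.69 in WT and 0.96 in ΔEGFR, against -0.03 and -0.02 over all genes tested. At an unadjusted p under 0.05 there were 5 markers in WT, where 28.9% of all genes tested were, and 2 (Reln and Acta2) in ΔEGFR, where 24.7% were, so the share in ΔEGFR was not above that of all genes. The standard errors ran from 0.65 to 1.33, so that a 2-fold change, 1 on the log2 scale, was within 2 standard errors for every marker. In TPM, 3 markers had CCl4 and mineral oil groups that did not overlap in WT (Reln, Des and Pdgfra), where 28.3% of all genes tested were higher in this way. In ΔEGFR these were Reln, Acta2 and Tagln, where 20.6% of all genes were.

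**Figure D2:**
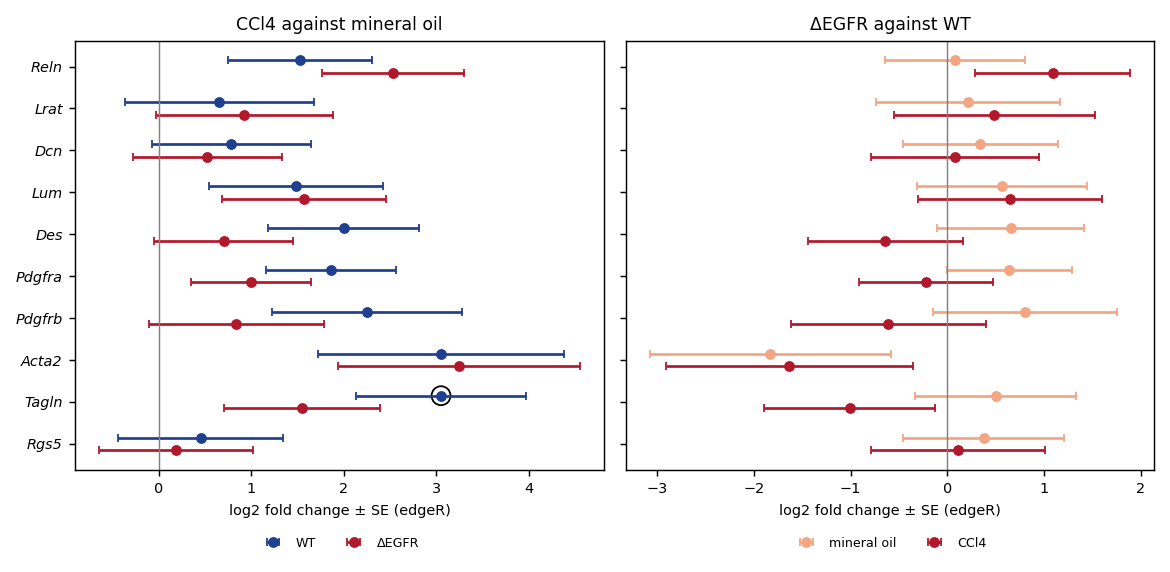
Log2 fold change ± SE (edgeR) of each marker for CCl4 against mineral oil in each genotype (left) and for ΔEGFR against WT under each treatment (right); the open circle marks the call with adjusted p under 0.05. Tagln in WT, at 3.05 ± 0.92, is the only circled value.

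The difference between the genotypes was tested directly. For ΔEGFR against WT in mineral oil 0 of 10 markers passed, and 0% of all genes did (1197 genes had an unadjusted p under 0.05, and DESeq2 called 0). The estimates ran from -1.83 for Acta2 to 0.81 for Pdgfrb, and the groups overlapped in TPM for all 10 markers, where 0.912% of all genes did not. The Acta2 value of -1.83 ± 1.25 (adjusted p = 0.717) rested on WT mineral oil replicate 1 and was 1.64 without it.

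Under CCl4, 0 of 10 markers passed for ΔEGFR against WT, and 0% of all genes did (411 genes had an unadjusted p under 0.05, and DESeq2 called 2). The estimates ran from -1.63 ± 1.28 for Acta2 to 1.09 ± 0.80 for Reln (edgeR, adjusted p = 1 for both), and the Acta2 value was -0.26 without WT CCl4 replicate 1 and -3.35 with depth class as a covariate. Reln was the 1 marker whose groups did not overlap in TPM, with ΔEGFR higher, as 2.90% of all genes tested were. Acta2 was between 0.82 and 3.14 TPM in ΔEGFR CCl4 and between 1.38 and 13.45 TPM in WT CCl4, which overlapped. Pdgfrb (-0.61 ± 1.01) and Tagln (-1.01 ± 0.88) had negative estimates that turned to 0.99 and 0.39 without WT CCl4 replicate 1. The interaction, which asks whether the response to CCl4 differed between the genotypes, passed for 0 of 10 markers and 0% of all genes (568 genes had an unadjusted p under 0.05, DESeq2 called 2 and limma on log2(TPM + 1) called 1). Its estimates ran from -1.51 ± 1.22 for Tagln to 1.01 ± 1.07 for Reln.

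Most of the markers varied together from library to library. For each of the 45 pairs of markers the SD over the 15 libraries of the log2 CPM difference (CPM, counts scaled to the size of the library) was computed, so that a small SD means a nearly constant ratio. The smallest was 0.29, for Dcn and Rgs5, followed by 0.475 for Lrat and Dcn, 0.515 for Lrat and Lum and 0.521 for Lrat and Rgs5. By comparison, Dcn alone had an SD of 1.24, Rgs5 of 1.22 and Lrat of 1.54 over the same libraries. The 21 pairs among the 7 markers other than Acta2, Tagln and Reln lay between 0.29 and 0.944. Pairs with Reln lay between 0.921 and 2.04, and pairs with Acta2 between 1.5 (with Tagln) and 2.31 (with Rgs5). Acta2 had an SD of 2.66 on its own, and 4 of its values rest on 0 to 9 counts.

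**Figure D3:**
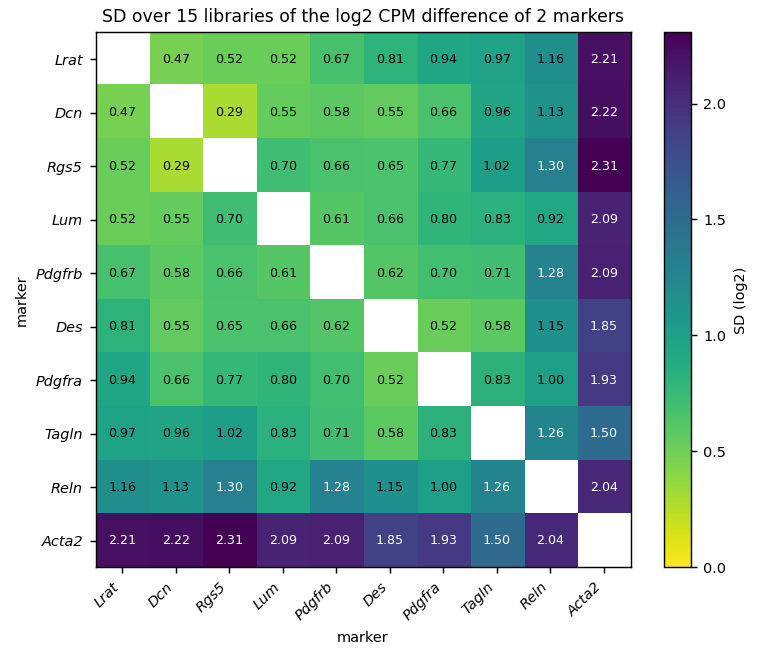
SD over the 15 libraries of the log2 CPM difference of each pair of markers, with darker colours for larger SD. Pairs among Dcn, Rgs5, Lrat and Lum lie between 0.29 and 0.705, and the row of Acta2 holds the largest values (1.5 to 2.31). Several pairs with Des, Pdgfra or Pdgfrb lie in the same range of small values, such as Des and Pdgfra at 0.523.

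The genes most like a marker by the same measure were sought among 12647 genes with a mean of at least 1 CPM. For Dcn they were Bgn (SD 0.174), Rgs5 (0.29), Rbms3 (0.298), Scarf2 (0.324) and Ddr2 (0.324), where Bgn encodes biglycan, another small proteoglycan, and Ddr2 a collagen receptor. For Rgs5 they were Dcn (0.29), Bgn (0.315), Adam23 (0.35), Prelp (0.353) and Sept4 (0.371). For Lrat they were Col14a1 (0.318), Gucy1b1 (0.326), Tmem47 (0.335), Angptl2 (0.362) and Ntn1 (0.365), with Dcn in rank 14, Lum in rank 24 and Rgs5 in rank 27. For Acta2 the nearest were less close: Klf4 (1.018), Hid1 (1.066), Nes (1.095), Thbs1 (1.106) and Cd93 (1.139), while Tagln was in rank 249 and Lrat in rank 1885. The median SD over all ranked genes was 1.63 for Lrat, 1.34 for Dcn, 1.32 for Rgs5 and 2.71 for Acta2. All these libraries are shared between the genes compared, so the values are descriptions.

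Because the markers shared so much of their variation, each was also set against Lrat within its own library, as a ratio of TPM. The ratio of Acta2 to Lrat was 0.867, 0, 0.35 and 0.0945 in WT mineral oil and 3.07, 4.06 and 2.51 in WT CCl4. The ΔEGFR ratios were 0.103, 0.0425, 2.25 and 0.125 after mineral oil and 1.09, 0.447, 0.558 and 0.83 after CCl4. Every WT CCl4 library thus had more Acta2 than Lrat transcript per length and every WT mineral oil library less, whereas 1 of the ΔEGFR mineral oil libraries and 1 of the ΔEGFR CCl4 libraries had more. In ΔEGFR mineral oil the high ratio came from replicate 3, which had both the lowest Lrat (0.16 TPM) and the highest Acta2 (0.36 TPM) of its group. The highest WT CCl4 ratio, 4.06 in replicate 2, came with the lowest Lrat of that group (0.34 TPM). All 4 ΔEGFR CCl4 ratios lay below the 3 WT CCl4 ratios, and this was also so with Dcn or Rgs5 in place of Lrat.

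The ratio of Tagln to Lrat ran from 1.11 to 2.45 in WT mineral oil and from 5.09 to 7.16 in WT CCl4. In ΔEGFR it ran from 1.04 to 5.06 after mineral oil and from 1.95 to 3.53 after CCl4. The WT groups did not overlap and the ΔEGFR groups did, and all ΔEGFR CCl4 ratios lay below those of WT CCl4. Of the 9 ratios to Lrat, 3 were higher in every WT CCl4 than in every WT mineral oil library (Pdgfrb, Acta2 and Tagln), where 2.40% of all genes tested were. For ΔEGFR these were 2 (Reln and Lum), where 0.412% of all genes were. Under CCl4, 5 ratios (Dcn, Des, Pdgfrb, Acta2 and Tagln) were lower in every ΔEGFR than in every WT library, where 1.27% of all genes were. These ratios share the WT CCl4 libraries and the Lrat denominator, and with Dcn as denominator 2 of 9 ratios were lower (Des and Acta2) and 2 were higher (Lrat and Lum), so the count of 5 depends on the denominator. With Rgs5 as denominator 1 of 9 ratios (Acta2) was lower, and in WT 6 of 9 (Lum, Des, Pdgfra, Pdgfrb, Acta2 and Tagln) were higher after CCl4, against 3 of 9 with Dcn (Des, Acta2 and Tagln). The share of all genes was not computed with Dcn or Rgs5 as denominator, so whether these counts are unusual cannot be said. Acta2 and Tagln were higher in WT with each of the 3 denominators, and Reln and Lum were higher in ΔEGFR with each of the 3. Lrat itself varied 43.9-fold between libraries, and the share of all genes higher in WT was 28.3% in plain TPM against 2.40% relative to Lrat. Most of the markers vary with Lrat more closely than other genes do, so the shares relative to Lrat are not a like standard for them.

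**Figure D4:**
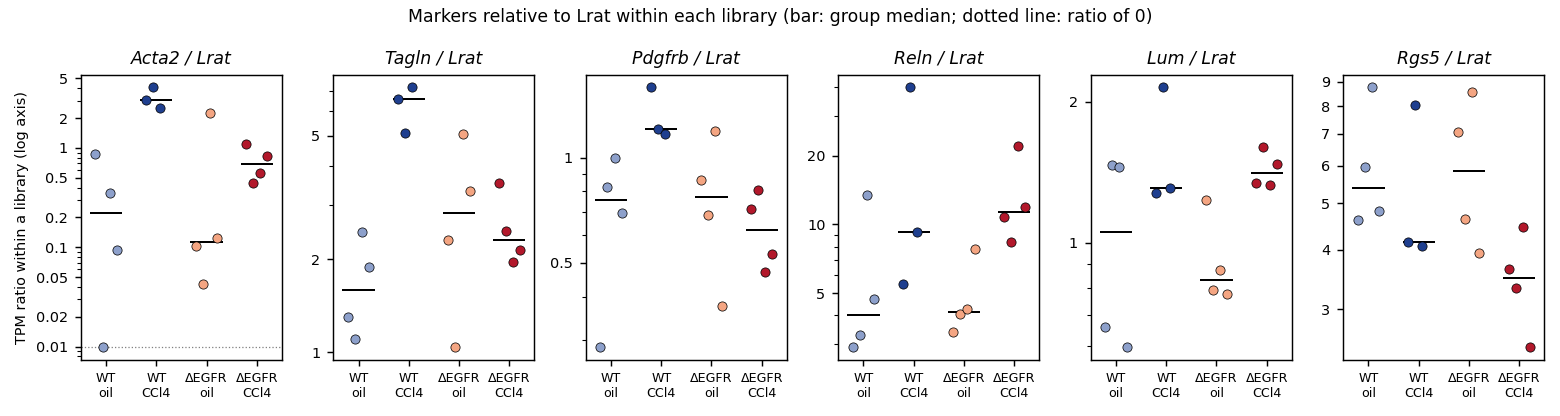
TPM of Acta2, Tagln, Pdgfrb, Reln, Lum and Rgs5 divided by the TPM of Lrat in the same library, on log axes that differ between panels, with 1 point per library and 1 bar per group median. For Acta2 the 3 WT CCl4 points lie between 2.51 and 4.06, above the 4 ΔEGFR CCl4 points between 0.447 and 1.09.

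The ratio of Reln to Lrat ran from 3.38 to 7.78 in ΔEGFR mineral oil and from 8.34 to 22.1 in ΔEGFR CCl4, which did not overlap. In WT it ran from 2.91 to 13.5 after mineral oil and from 5.46 to 39.9 after CCl4, which did. The ratio of Rgs5 to Lrat overlapped in all 4 comparisons, with group medians of 5.39 and 4.14 in WT and 5.84 and 3.48 in ΔEGFR. Reln relative to Lrat also overlapped between ΔEGFR and WT under CCl4, so its higher TPM in ΔEGFR was not matched by a separate ratio.

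A fit with the mean log2 CPM of Lrat, Dcn and Rgs5 as a covariate, added after the data were seen, gave the other 7 markers at a matched level of these 3. In WT, Tagln (2.30 ± 0.46, edgeR, adjusted p = 0.0125), Des (1.48 ± 0.31, adjusted p = 0.015) and Pdgfra (1.52 ± 0.35, adjusted p = 0.0218) passed as higher after CCl4, 3 of 7 where 5.37% of all genes did. The covariate genes vary with most of the markers in these same libraries, and the standard error of Des was 0.82 without the covariate. The share of all genes is thus not a like standard for the 7 markers here. Acta2 was at 3.01 ± 1.24 (adjusted p = 0.136). In ΔEGFR 0 of 7 passed, where 0.567% of all genes did, with Reln at 2.27 ± 0.53 (adjusted p = 0.0614) and Lum at 1.06 ± 0.26 (adjusted p = 0.0714). For ΔEGFR against WT under CCl4 0 of 7 passed, as 0% of all genes did, with Tagln at -0.95 ± 0.43 and Pdgfrb at -0.71 ± 0.37 (adjusted p = 1 for both).

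Further genes often listed for the activated state were read from the fit without this covariate. Of 27 tested matrix and activation genes, 12 rose and 0 fell in WT, with a median log2 fold change of 2.72, and 3 rose in ΔEGFR, with a median of 2.03. Over all genes tested 5.31% rose in WT and 1.77% in ΔEGFR, so fewer calls in ΔEGFR were not particular to this list. The interaction passed for 0% of all genes. Col5a2, a fibrillar collagen gene, rose by 3.15 ± 0.53 in WT (edgeR, adjusted p = 0.00549) and by 2.19 ± 0.49 in ΔEGFR (adjusted p = 0.0339). Ltbp2, whose product sits on microfibrils, rose by 2.82 ± 0.55 and 2.7 ± 0.53 (adjusted p = 0.00914 and 0.0227), and Col1a2 by 3.41 ± 0.68 in WT (adjusted p = 0.0101). Of 11 tested contractile genes other than Acta2 and Tagln, 4 rose in WT and 0 passed in ΔEGFR. These were Tpm1, Tpm2, Myl9 and Actn1, which encode 2 tropomyosins, a myosin light chain and α-actinin, with Myl9 at 3.52 ± 0.87 (adjusted p = 0.0212) and Tpm2 at 2.14 ± 0.50 (adjusted p = 0.0171). Myocd, a regulator specific to muscle, was listed at 0 in every library. In the WT mineral oil libraries the 15 listed contractile genes summed to 155.6 to 214.6 TPM and the 28 listed activation genes to 564.4 to 835.7 TPM. The 10 markers summed to 13.8 to 77.2 TPM there. Which cells carried the listed transcripts was not tested, so their rises cannot be assigned to stellate cells.

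Of 24 tested further genes of resting stellate cells, 1 rose (Bambi, a decoy receptor that restrains TGF-β signalling, by 1.76 ± 0.32, edgeR, adjusted p = 0.00638) and 1 fell (Steap4, a metalloreductase, by 1.53 ± 0.39, adjusted p = 0.0254) in WT. In ΔEGFR 0 rose and Steap4 fell by 1.54 ± 0.36 (log2; adjusted p = 0.0365). Over all genes tested 5.31% rose and 7.2% fell in WT, and 1.77% rose and 2.38% fell in ΔEGFR. The median log2 fold change of the 24 was 0.60 in WT and 0.46 in ΔEGFR.

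Markers of other cell types also differed between the groups, and their part in the values of the 10 markers was not tested. The summed TPM of 22 macrophage genes was 124.5 to 2155.2 in WT mineral oil and 3440.9 to 12395.5 in WT CCl4, and 53.8 to 1543.3 and 3686.2 to 10587.5 in ΔEGFR. Of these genes 6 rose in WT and 3 in ΔEGFR, where 5.31% and 1.77% of all genes tested did. The sum of 14 cholangiocyte genes was 39.1 to 99.3 and 376.6 to 1227.2 TPM in WT, and 17.6 to 194.2 and 325.0 to 984.1 TPM in ΔEGFR. Of 13 tested cholangiocyte genes, 4 rose in WT and 2 in ΔEGFR. This list shares Spp1 with the macrophage list and Krt19 with the list of portal fibroblasts and mesothelium. The sum of 20 endothelial genes was 43.6 to 542.7 and 218.7 to 407.0 TPM in WT, and 54.0 to 209.1 and 263.3 to 578.4 TPM in ΔEGFR, and 1 of 20 (Vwf) rose in each genotype. The WT mineral oil range of this sum was 43.6 to 161.1 TPM without replicate 1, below every WT CCl4 library. In the edgeR fit of all 15 libraries the median log2 fold change of the 20 endothelial genes was 0.01 in WT and 0.72 in ΔEGFR. In WT 10 of the 20 were positive, and in ΔEGFR 20 of 20. The list of 16 genes of portal fibroblasts and mesothelium summed to 2.9 to 21.1 and 18.4 to 28.4 TPM in WT, and to 3.8 to 15 and 11.5 to 44.0 TPM in ΔEGFR, and the WT mineral oil sum reached only 15.8 TPM without replicate 1. Of 14 tested 7 rose in WT and 5 in ΔEGFR, with the mesothelial genes Upk1b at 5.27 ± 0.82 and Msln at 5.23 ± 0.88 in WT (edgeR, adjusted p = 0.00429 and 0.00549). Dcn, Lum, Pdgfra, Pdgfrb and Acta2 are also expressed by portal fibroblasts, and Acta2, Tagln, Des and Rgs5 by vascular smooth muscle and pericytes. The hepatocyte genes summed to 67644 to 118176 and 65129 to 105633 TPM in WT. Of these 15 genes, 8 fell in WT and 3 in ΔEGFR, where 7.2% and 2.38% of all genes tested did.

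**Figure D5:**
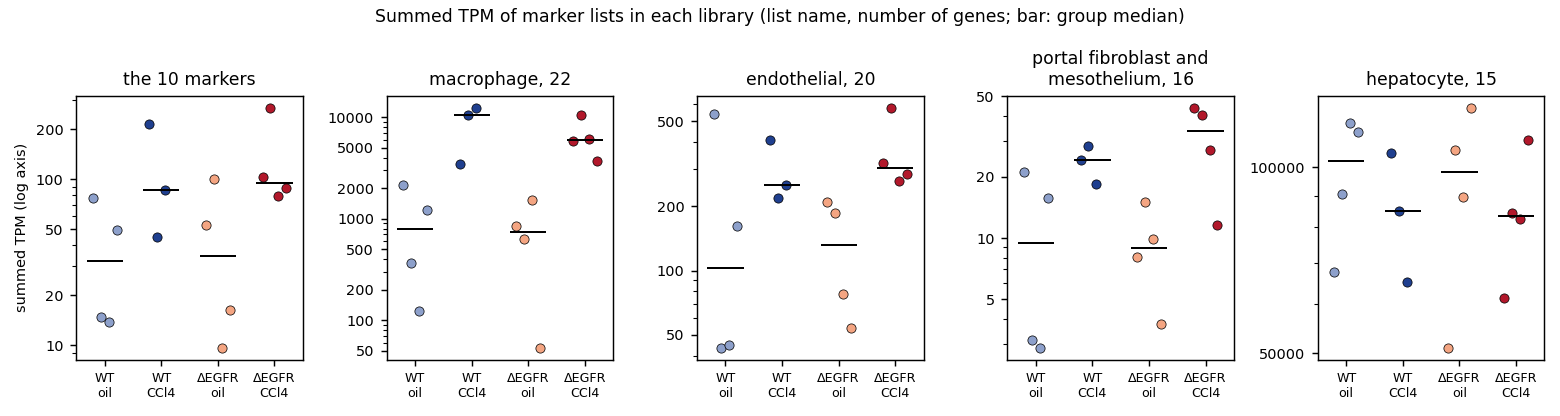
Summed TPM of the 10 markers and of gene lists for macrophages, endothelial cells, portal fibroblasts with mesothelium, and hepatocytes, on log axes that differ between panels, with 1 point per library and 1 bar per group median. The macrophage sum of every CCl4 library (3440.9 TPM and above) lies above that of every mineral oil library (2155.2 TPM and below), while the sums of the 10 markers overlap in both genotypes.

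Depth moved with genotype in the mineral oil libraries, since all 4 of ΔEGFR lay in the upper range and 3 of 4 of WT in the lower. Within the upper range, Acta2 passed for CCl4 in ΔEGFR (3.52, edgeR, adjusted p = 0.05 after rounding), as 1 of the 10 markers, where 0.479% of all genes did. Within the lower range, 0 of 10 markers passed for CCl4 in WT, but 0% of all 17133 genes tested did either (5274 had an unadjusted p under 0.05), with 3 mineral oil and 2 CCl4 libraries. Tagln was at 4.03 there (adjusted p = 0.119).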

How the data were processed

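RNA of primary mouse hepatocytes was made into stranded mRNA libraries, per the labels' protocols. Reads were processed with STAR 2.7.8a and RSEM 1.3.0 and build GRCm39, per the submitters' processing notes, while the annotation and strand setting are not given in the sources used here. The deposited file of each library holds RSEM expected counts, TPM and the mean transcript length per gene, as the authors' RSEM run gave them.

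Gene names came from an annotation table joined by Ensembl ID, which named 52029 IDs (91.4%). Libraries were grouped by the labels for genotype and treatment, and replicates were numbered in order of deposit. The rounded counts went into edgeR 4.0.16 (R 4.3.3). The fit used filterByExpr (minimum count 10, minimum total 15), TMM factors, 1 mean for each of 4 groups over all 15 libraries and a robust quasi-likelihood F test, two-sided. P-values were adjusted by Benjamini-Hochberg over 17975 genes with a threshold of 0.05. The standard error is the log2 fold change divided by the square root of F. Log2 CPM used a prior count of 2.

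The members, the gene lists and the tests were chosen with earlier results of these data known. All 10 members are described. From each list at most 3 called genes with the lowest adjusted p were to be named, and the genes nearest to Lrat, Dcn, Acta2 and Rgs5 by the SD of the log2 CPM difference. Actn1 was named in addition after its values were seen. Promoter sequences are from RefSeq, build GRCm38.p6, and 6 of 10 members had one.

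Alternatives were other scaling factors, DESeq2 1.42.0, other low-count filters, only the groups compared, limma 3.58.1 on log2(TPM + 1) and log2(TPM + 0.1), a depth class covariate and leaving out each library. The covariate of 3 markers and the fits within a depth range were added after the data were seen. On simulated data for CCl4 in WT, with 50 changed genes per fold among 17975, a 4-fold rise was recovered for 80% and a 2-fold rise for 26%. The changed genes were drawn from all genes with a mean over 1 CPM, each with its own spread and independent of the others. The recovered shares are thus not those of the 10 markers, whose standard errors in WT ran from 0.70 to 1.33.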

Additional observations from a re-analysis of the deposited data

Results flagged for a closer look

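In the groups of 4 libraries, 30 sets of TPM values of the 10 markers were checked for a library far from the others, and 6 held one. ΔEGFR CCl4 replicate 2 was that library for 4 markers, with Lrat at 7.02 TPM, Lum at 11.22 TPM, Pdgfra at 2.99 TPM and Rgs5 at 23.31 TPM. ΔEGFR mineral oil replicate 2 was that library for Pdgfra, at 1.21 TPM. WT mineral oil replicate 1 was that library for Acta2, at 2.02 TPM, where the other 3 libraries of its group lay at or below 0.12 TPM. These markers share libraries, so the 6 are not independent of each other.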

How the results depend on the processing

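With 3 or 4 libraries per group and standard errors up to 1.33 on the log2 scale, these tests could call only large changes of the markers. Counts come from reads without molecular identifiers, and isoform estimates enter every TPM. In what follows the share of all genes called in either direction stands in parentheses, and for the covariate of 3 markers it is not a like standard. For CCl4 in WT, where 1 marker passed (12.5%), 2 passed with DESeq2 (20.2%), 2 with the depth class covariate (12.9%), 4 with limma on log2(TPM + 1) (19.8%), 4 on log2(TPM + 0.1) (18.6%) and 3 with the covariate of 3 markers (11.1%). There were 0 without a low-count filter (4.69%), with only the groups compared (3.33%) and within the lower depth range (0%). Without 1 library at a time it was 0 to 3, and 3 (Acta2, Des and Tagln) without WT mineral oil replicate 1 (28.7%). For CCl4 in ΔEGFR, where 0 passed (4.15%), 1 passed with no scaling factor (6.56%), 2 with DESeq2 (13.4%), 1 with only the groups compared (7.57%), 1 with limma on log2(TPM + 1) (14%), 2 on log2(TPM + 0.1) (12.8%) and 1 within the upper depth range (0.479%), and 0 to 1 without 1 library at a time. No scaling factor moved the median of all genes to 0.397 in WT and 0.44 in ΔEGFR (log2). With limma it was 0.383 and 0.38 on log2(TPM + 1), and 0.518 and 0.49 on log2(TPM + 0.1). In TPM the median gene was thus higher after CCl4, and this shift enters every TPM level, overlap and sum given above. For the genotype comparisons and the interaction 0 markers passed in every setting run.

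Single genes were followed through the settings for all 10 markers under CCl4 against mineral oil, and for Reln, Pdgfrb, Acta2 and Tagln alone in the genotype comparisons and the interaction. Among these, signs turned as follows, and the cause was not tested. Without 1 library at a time, the CCl4 value in WT ran from -0.553 to 1.45 for Lrat, from -0.198 to 1.35 for Dcn and from -0.599 to 1.11 for Rgs5, and in ΔEGFR from -0.343 to 0.657 for Rgs5. For ΔEGFR against WT in mineral oil it ran from -0.93 to 0.464 for Reln, from -2.45 to 1.64 for Acta2 and from -0.178 to 1.25 for Tagln. Under CCl4 it ran from -1.41 to 0.986 for Pdgfrb and from -1.52 to 0.389 for Tagln, and the interaction from -3.28 to 1.58 for Acta2 and from -2.22 to 0.171 for Pdgfrb. Reln in mineral oil was -0.039 with limma on log2(TPM + 0.1), -0.135 with the depth class covariate and -0.291 with the covariate of 3 markers, and Tagln was -0.051 with the depth class covariate. The Acta2 interaction was -0.686 and -0.845 with limma, -1.01 with the depth class covariate and -1.18 with the covariate of 3 markers.

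The mean of Acta2 in WT mineral oil was 0.552 TPM with replicate 1 and 0.063 without it. No paired analysis was possible because the labels carry no replicate numbers or animals that tie libraries across groups.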
